A study of Mus musculus with 12 samples.

Results

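The lipid droplet coat and lipolysis genes were followed across 12 mouse kidney libraries. These 10 genes cover fat droplets, govern the release of fatty acids from them or, in the case of Angptl4, inhibit lipoprotein lipase outside the cell. They were Plin2, Plin3, Plin4, Plin5, Cidec, Pnpla2, Angptl4, Hilpda, G0s2 and Mgll. All 10 genes were found by their mouse Ensembl number in both deposited tables, which list 32199 genes (first table) and 31719 genes (second table), or 35536 in either. The genes were chosen by their FPKM changes between knockout and wild-type libraries in these same tables, so their values, their changes and whether these passed a threshold are given as a description and support nothing by themselves.

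The study asked how PAD4, an enzyme that neutrophils need to release extracellular traps, and the alarmin IL-33 bear on contrast-induced acute kidney injury. The IL-33 set held 3 libraries labelled IL-33 knockout (Il33 knockout mice) and 3 wild-type libraries. The PAD4 set held 3 PAD4 knockout libraries (Padi4 knockout mice) and its own 3 wild-type libraries. The labels name each set as a batch of its own, and the study's description calls the 3 libraries of a group independent biological replicates. Per the labels' protocols, all mice were male and aged 8 weeks, the wild type was C57BL/6, and every animal of all 4 groups carried the same injury. A kidney was removed, and 3 weeks of recovery followed. Water was then withheld for 24 h, furosemide (a loop diuretic) was given 20 min before iodixanol (an iodinated contrast agent) entered the tail vein, and the kidney left in place was collected after another 24 h. No uninjured group was analysed here, and the mutant alleles and the strain background of the knockouts are not given in the labels.

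Cells store surplus fatty acids as triglyceride in lipid droplets, whose surface is covered by perilipins. Release of the fatty acids starts with adipose triglyceride lipase, the product of Pnpla2, and ends with monoglyceride lipase, the product of Mgll. G0S2 and HILPDA bind and inhibit adipose triglyceride lipase, CIDEC helps droplets to fuse and grow, and ANGPTL4 is secreted and inhibits lipoprotein lipase outside the cell. Plin2, Angptl4 and Hilpda are known targets of the fatty acid receptors of the PPAR family and also answer to hypoxia. In the kidney, proximal tubule cells burn fatty acids for most of their energy and gather lipid droplets in fasting and after injury.

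Levels are the FPKM that the authors deposited, which are fragments scaled by transcript length and by the size of the library. FPKM summed to 385124 to 420279 per library in the IL-33 set, with 24.1% to 29.2% in mitochondrially encoded genes, and to 700601 to 812981 in the PAD4 set, with 52.0% to 60.0% in those genes. The sets were not put on 1 scale, so levels were tested within a set. FPKM does not carry the read depth, so the depth behind these values is unknown. Il33 was not lost from the libraries that bear its name: it had 1.14, 0.616 and 1.02 FPKM in libraries labelled IL-33 knockout, against 1.71, 1.13 and 3.64 FPKM in wild-type libraries (limma adjusted p = 0.099; exact two-sided permutation p = 0.2). In the PAD4 set Il33 had 0.889, 1.58 and 1.28 FPKM in PAD4 knockout libraries, against 3.57, 5.29 and 3.28 FPKM in wild-type libraries, and fell (-1.15 ± 0.23, adjusted p = 0.00208, limma). Padi4 had 0.217, 0.497 and 0.187 FPKM in PAD4 knockout libraries, against 0.704, 1.06 and 1.67 FPKM in wild-type libraries (limma adjusted p = 0.0147; exact two-sided permutation p = 0.1, the smallest that 3 libraries against 3 allow). Markers of the proximal tubule summed to 1902 to 2720 FPKM in libraries labelled IL-33 knockout, against 504 to 599 FPKM in their wild type. In the PAD4 set they summed to 153 to 377 FPKM in knockout libraries and 54.2 to 85.0 FPKM in wild-type libraries. There, colon markers summed to 119.9 to 227 FPKM in knockout libraries and 405 to 621 FPKM in wild-type libraries, lung markers to 42.5 to 207 FPKM in knockout libraries and 295 to 842 FPKM in wild-type libraries, and all 12 colon markers and all 8 lung markers had a lower mean in the knockout, as had 6 of 6 smooth muscle, 10 of 10 neutrophil, 6 of 6 podocyte, 9 of 10 macrophage, 7 of 8 endothelial and 5 of 6 adrenal cortex markers. Markers of the thick ascending limb, the tubule segment that furosemide acts on, summed to 93.4 to 571 FPKM in PAD4 knockout libraries and 54.0 to 172 FPKM in wild-type libraries, with 6 of 6 higher in mean. In the wild-type libraries of the PAD4 set, labelled kidney, colon and lung markers thus each summed to more than proximal tubule markers, and the part of these markers in the results below was not tested.

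Promoter sequences of the members were compared. RefSeq promoters (GRCm38.p6, 250 bases before to 50 after a start site) were found for 9 of the 10 genes, 13 promoters in all, and none is printed for Angptl4. Of these, 3 are given: Plin2, which differed most in the IL-33 set, Hilpda, which passed the threshold in both sets, and Pnpla2, which holds none of the motifs marked in the others. Capitals mark ACGTG or GCGTG, the cores that hypoxia-inducible factors and related factors bind, and AGGTCA, the repeated unit of PPAR binding sites, each searched on both strands and therefore also marked where it reads backwards as its complement. Plin2 lies at chr4:86670010-86670309 (minus strand), Hilpda at chr6:29272376-29272675 (plus strand) and Pnpla2 at chr7:141454938-141455237 (plus strand). Another Hilpda window, starting at 29272238 and not printed, overlaps the printed one and held GCGTG but not ACGTG.
Plin2: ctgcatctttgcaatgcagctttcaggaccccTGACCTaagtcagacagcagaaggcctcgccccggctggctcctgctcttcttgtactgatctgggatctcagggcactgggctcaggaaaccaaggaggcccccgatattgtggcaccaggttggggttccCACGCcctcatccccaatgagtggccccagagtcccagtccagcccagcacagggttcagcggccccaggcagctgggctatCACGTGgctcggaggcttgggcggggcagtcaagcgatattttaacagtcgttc
Hilpda: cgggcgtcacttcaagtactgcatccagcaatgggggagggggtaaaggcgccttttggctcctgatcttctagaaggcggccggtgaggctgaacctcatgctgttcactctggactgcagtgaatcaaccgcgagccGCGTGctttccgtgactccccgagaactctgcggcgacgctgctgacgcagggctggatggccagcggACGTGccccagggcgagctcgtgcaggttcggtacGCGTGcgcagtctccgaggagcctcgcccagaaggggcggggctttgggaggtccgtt
Pnpla2: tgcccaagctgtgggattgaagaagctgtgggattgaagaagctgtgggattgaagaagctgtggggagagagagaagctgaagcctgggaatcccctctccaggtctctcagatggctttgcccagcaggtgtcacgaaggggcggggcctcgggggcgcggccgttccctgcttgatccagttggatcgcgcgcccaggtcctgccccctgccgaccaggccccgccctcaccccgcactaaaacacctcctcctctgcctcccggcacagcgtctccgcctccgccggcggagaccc

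The Plin2 promoter held CACGTG, the core of both E-box and hypoxia-type elements, starting 4 bases before the annotated start site, and ACGTG on both strands overlaps it. CACGTG was present in 2 of the 13 member promoters and 7.15% of all promoters. The Plin2 promoter also held AGGTCA on the minus strand of the window. GCGTG was present in 10 of the 13 promoters (76.9%), which belong to 6 of the 9 genes, against 32.4% of all 32851 promoters in the table. ACGTG was present in 4 of 13 (30.8%), against 19.6% of all promoters, and AGGTCA in 3 of 13 (23.1%), against 16.3% of all promoters. Some of the 13 windows overlap, and their median GC content was 64.3%, against 52.7% for all promoters. CCAAT was in 4 of 13 member promoters and 37.4% of all promoters, and TATAAA in 0 of 13 and 13.6%, on either strand. A match of letters is a description of the window and not evidence of binding.

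In the libraries labelled IL-33 knockout, every one of the 10 genes was lower than in wild type, with no overlap between the groups, where 24.3% of all genes compared had the 3 knockout libraries below the 3 wild-type ones. Plin2, the coat protein that marks droplets in most cells outside fat tissue, had 22.9, 24.7 and 24.3 FPKM in libraries labelled IL-33 knockout, against 1352, 1097 and 1088 FPKM in wild-type libraries. Its mean of 24.0 ± 0.922 FPKM in the knockout and 1179 ± 150.2 FPKM in wild type (SD, n = 3 each) differed 49.2-fold, a change of -5.56 ± 0.11 (limma SE) on the log2(FPKM + 1) scale. Only 2 of the 14513 genes compared had a more negative change than Plin2. Among nuclear genes it ranked 1900, 1780 and 1784 by FPKM in the libraries labelled IL-33 knockout and 17, 21 and 17 in wild-type libraries. Plin2 was thus among the most abundant nuclear transcripts of the wild-type libraries of this set and ranked far lower in the libraries labelled knockout. In the PAD4 set, with the same injury, it ranked 95, 143 and 154 in wild-type libraries and 523, 218 and 1265 in knockout libraries. In such bulk samples, fewer cells of a type and less RNA per cell cannot be told apart.

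The other perilipins were lower too, by smaller factors. Plin4, a perilipin best known from fat and muscle, had 0.565, 0.665 and 0.637 FPKM in libraries labelled IL-33 knockout, against 6.93, 18.8 and 10.6 FPKM in wild-type libraries, a 19.5-fold lower mean and a change of -2.91 ± 0.29. Plin5, which tethers droplets to mitochondria in tissues that burn fat, had 1.62, 1.85 and 1.54 FPKM in libraries labelled IL-33 knockout, against 5.81, 9.02 and 6.16 FPKM in wild-type libraries, a change of -1.56 ± 0.16. Plin4 and Plin5 lie next to each other on chromosome 17 with 0 protein-coding genes between them. Their wild-type libraries had the same order, library 2 highest and library 1 lowest, but so had those of Angptl4 and Mgll. Plin3, a perilipin that also exists free in the cytosol and is made in nearly all tissues, had 11.8, 10.9 and 12.0 FPKM in libraries labelled IL-33 knockout, against 19.3, 15.1 and 20.9 FPKM in wild-type libraries. Its change of -0.61 ± 0.13 was the smallest of the 10 and its groups were apart by a narrow gap, with the lowest wild-type library 1.25 times the highest knockout library. Cidec, the droplet fusion protein, had 0.399, 0.766 and 0.589 FPKM in libraries labelled IL-33 knockout, against 11.1, 8.40 and 8.90 FPKM in wild-type libraries, a 16.2-fold lower mean and a change of -2.72 ± 0.15. Cidec and Plin4 were below 1 FPKM in all 3 libraries labelled knockout, where the added 1 FPKM of the log scale understates the change.

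**Figure D1:**
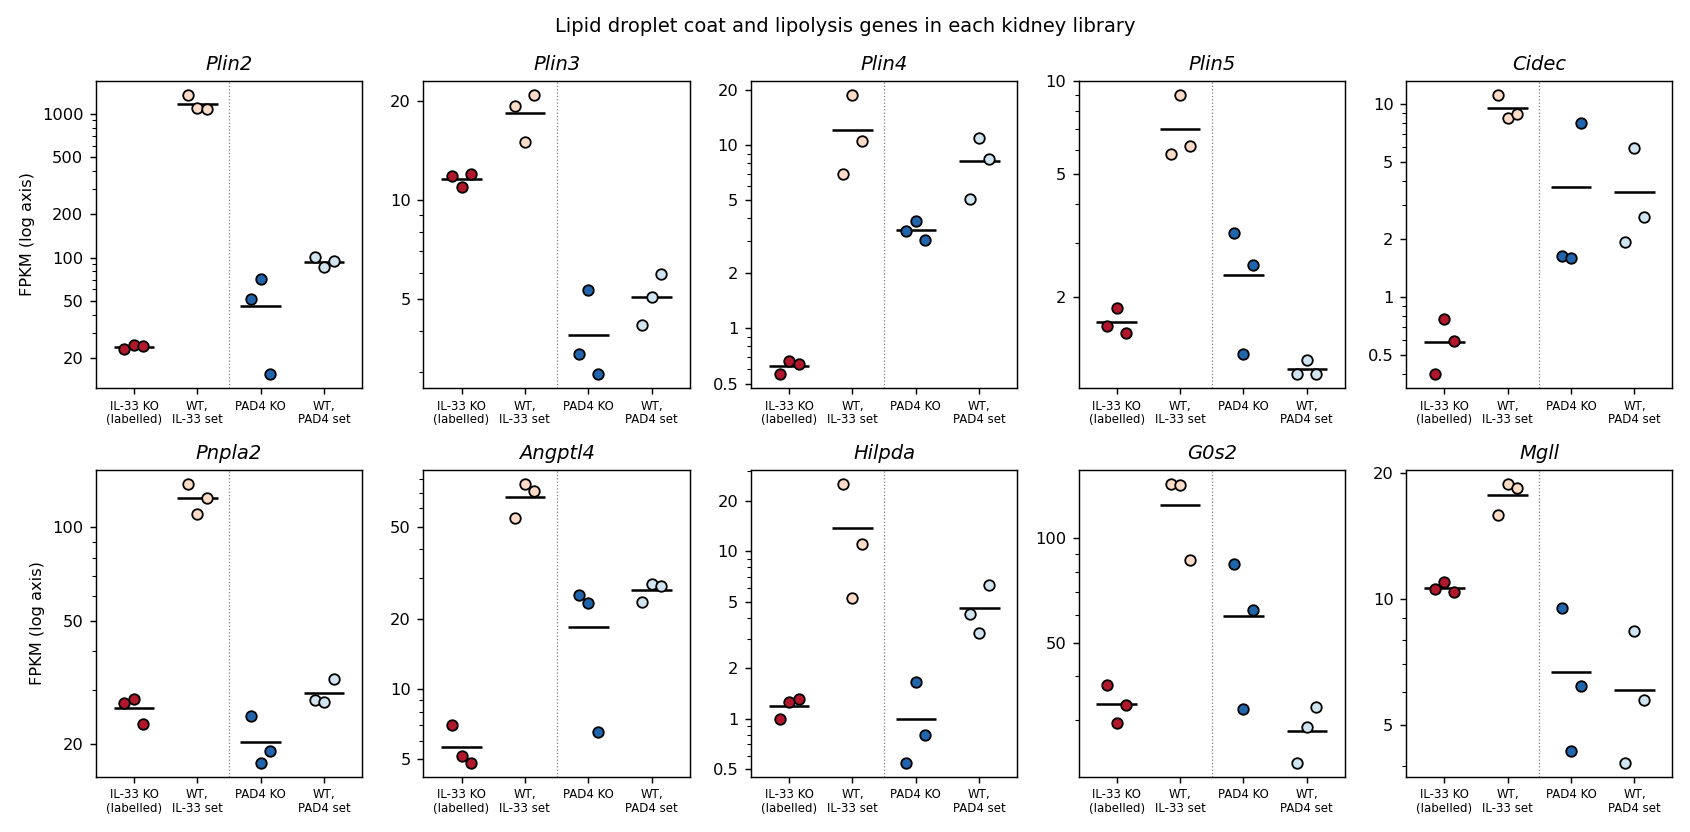
FPKM of each of the 10 genes (log axis, its own scale in each panel) in libraries labelled IL-33 knockout, wild type of the IL-33 set, PAD4 knockout and wild type of the PAD4 set. Points are libraries and bars are means of 3; in the IL-33 set the groups do not overlap for any of the 10 genes, and in the PAD4 set they overlap for 5 of the 10.

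The lipases and their inhibitors were all lower. Pnpla2, the first lipase of the droplet, had 27.1, 28.03 and 23.2 FPKM in libraries labelled IL-33 knockout, against 138, 110.4 and 125 FPKM in wild-type libraries, a 4.77-fold lower mean and a change of -2.21 ± 0.12. Its inhibitor G0s2 had 37.8, 29.4 and 32.98 FPKM in libraries labelled IL-33 knockout, against 143, 142 and 86.6 FPKM in wild-type libraries, a change of -1.83 ± 0.20. The second inhibitor, Hilpda, a hypoxia-induced gene, had 0.997, 1.25 and 1.32 FPKM in libraries labelled IL-33 knockout, against 25.3, 5.27 and 11.0 FPKM in wild-type libraries, a change of -2.52 ± 0.45. Hilpda had the widest spread of the 10 in wild type, with library 1 far above library 2, yet the lowest wild-type library was still 4.00 times the highest library labelled knockout. Mgll, the last lipase, had 10.6, 11.0 and 10.4 FPKM in libraries labelled IL-33 knockout, against 15.9, 18.9 and 18.5 FPKM in wild-type libraries, a 1.67-fold lower mean and a change of -0.68 ± 0.099. Its 3 libraries labelled knockout were closer to each other than those of any other of the 10 genes, with a coefficient of variation of 2.82%. Angptl4, the secreted inhibitor of lipoprotein lipase, had 6.98, 5.14 and 4.83 FPKM in libraries labelled IL-33 knockout, against 54.5, 76.4 and 71.1 FPKM in wild-type libraries, an 11.9-fold lower mean and a change of -3.36 ± 0.17. After Plin2, it had the most negative change of the 10 and ranked 29 from the lowest among 14513 genes.

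All 10 genes passed the low-value filter (a mean of at least 0.5 FPKM over the 6 libraries), and 10 of 10 were lower past the threshold (limma, Benjamini-Hochberg adjusted p under 0.05 over all genes), where 16.8% of the 14513 genes tested were lower past it. The rule that chose the genes used this contrast, so nothing is read from that count. The median change of the 10 genes was -2.37, beside 0.044 over all genes tested. All 10 stayed past the threshold under each of the 17 other settings run for this set.

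Levels could be ordered within each group. In libraries labelled IL-33 knockout the mean was highest for G0s2 (33.4 ± 4.19 FPKM), ahead of Pnpla2 and Plin2, and lowest for Plin4 and Cidec, with the ranges of Pnpla2 and Plin2, of Plin3 and Mgll, and of Plin4 and Cidec overlapping. In wild type of the IL-33 set, Plin2 stood alone at the top, Pnpla2 and G0s2 followed with overlapping ranges at 124 ± 14.0 and 124 ± 32.5 FPKM, and Angptl4 came next. The ranges of neighbours among Plin3, Mgll, Hilpda, Plin4, Cidec and Plin5 overlapped, so their order is not settled. Plin2 was therefore first of the 10 in injured wild-type kidney and ranked below G0s2 and Pnpla2 by mean in the libraries labelled IL-33 knockout.

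Ratios of FPKM within a library do not depend on how the library was scaled. Plin2 over Plin3, both perilipins found in many tissues, was 1.94, 2.26 and 2.01 in libraries labelled IL-33 knockout, against 69.9, 72.8 and 52.0 in wild-type libraries, so the 2 perilipins did not change in proportion. Mgll over Pnpla2, the last lipase over the first, was 0.390, 0.392 and 0.449 in libraries labelled IL-33 knockout, against 0.115, 0.171 and 0.148 in wild-type libraries, higher in all 3. G0s2 over Pnpla2, inhibitor over lipase, was 1.39, 1.05 and 1.42 in libraries labelled IL-33 knockout, against 1.03, 1.29 and 0.695 in wild-type libraries. These ranges overlapped, with inhibitor and lipase both lower. Hilpda over Pnpla2 was 0.0368, 0.0446 and 0.0568 in libraries labelled IL-33 knockout, against 0.183, 0.0477 and 0.0880 in wild-type libraries, again with overlap. Plin5 over Plin2 was 0.0706, 0.0751 and 0.0634 in libraries labelled IL-33 knockout, against 0.00430, 0.00822 and 0.00566 in wild-type libraries, higher in all 3.

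**Figure D2:**
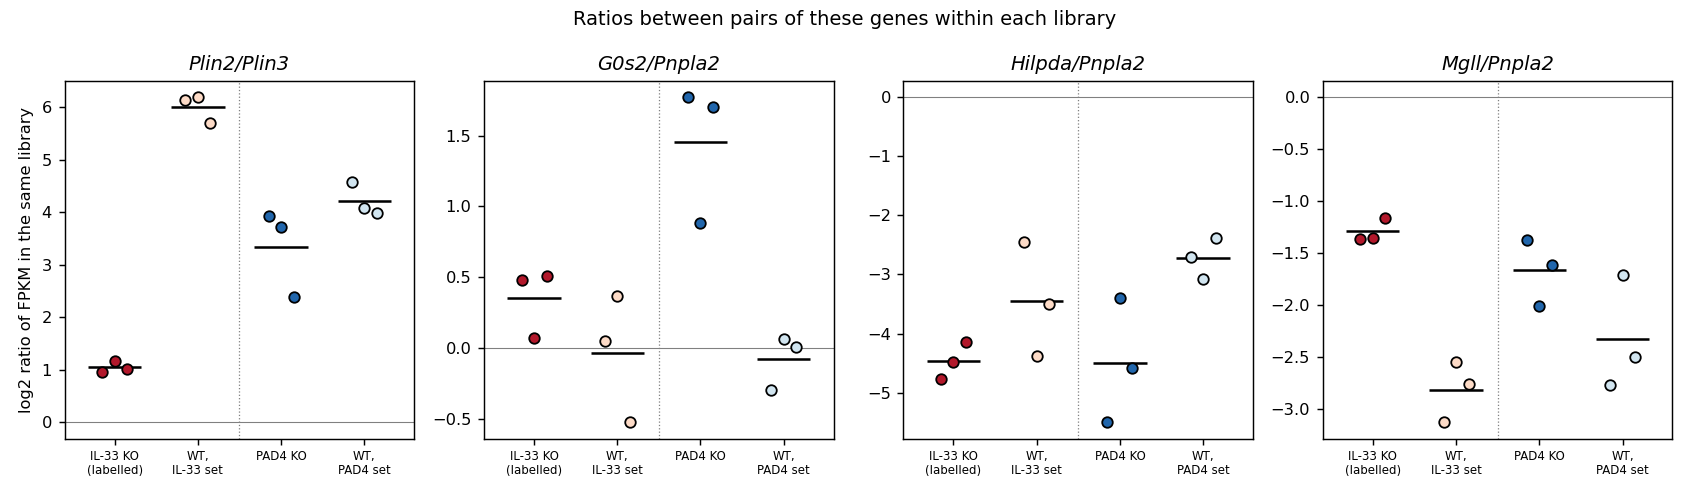
Log2 ratios of FPKM between 2 genes of the same library, for Plin2/Plin3, G0s2/Pnpla2, Hilpda/Pnpla2 and Mgll/Pnpla2, in libraries labelled IL-33 knockout, wild type of the IL-33 set, PAD4 knockout and wild type of the PAD4 set. Points are libraries and bars are means of 3; Plin2/Plin3 is lower in libraries labelled IL-33 knockout than in their wild type, and G0s2/Pnpla2 is higher in PAD4 knockout libraries than in theirs.

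Several of these genes are also strongly expressed in fat cells, and fat surrounds the kidney. The 12 adipocyte markers summed to 11.9, 13.2 and 10.9 FPKM in libraries labelled IL-33 knockout, against 48.2, 10.8 and 14.5 FPKM in wild-type libraries, so that wild-type library 1 stood apart, and 10 of 12 had a lower mean in the knockout. Adipoq, which encodes the fat hormone adiponectin, was listed at 0 in wild-type libraries 2 and 3 and had 1.59 FPKM in library 1, and the brown fat gene Ucp1 was at 0 and 0.0296 FPKM in libraries 2 and 3 and 5.36 FPKM in library 1. Without that library, all 10 genes were still past the threshold, with a change of -5.45 ± 0.080 for Plin2, -3.22 ± 0.22 for Plin4, -2.61 ± 0.13 for Cidec and -1.99 ± 0.26 for Hilpda. The part of fat tissue in the result was not tested beyond these values. Other markers that moved with the set were those of macrophages, which summed to 62.0 to 67.8 FPKM in libraries labelled IL-33 knockout and 20.4 to 35.5 FPKM in wild-type libraries with 8 of 10 higher in mean, and those of the proximal tubule, given above, with 12 of 12 higher in mean. Markers of the thick ascending limb summed to 2723 to 3637 FPKM in libraries labelled IL-33 knockout and 1487 to 2175 FPKM in wild-type libraries, with 6 of 6 higher in mean. Low sums also differed: the 8 colon markers listed in this table summed to 5.67 to 7.91 FPKM in libraries labelled IL-33 knockout and 20.4 to 41.3 FPKM in wild-type libraries, and the 4 lung markers listed to 0.427 to 0.683 FPKM in libraries labelled IL-33 knockout and 1.33 to 4.04 FPKM in wild-type libraries. By mean, 4 colon markers were higher and 3 lower in libraries labelled knockout, and 2 lung markers were higher and 2 lower. The lower sums were thus not shared by all of these markers. The part of these markers in the result was not tested. Adrenal cortex markers, from a gland beside the kidney that is rich in droplets, summed to 0.711 to 1.15 FPKM in libraries labelled IL-33 knockout and 0.837 to 1.54 FPKM in wild-type libraries.

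**Figure D3:**
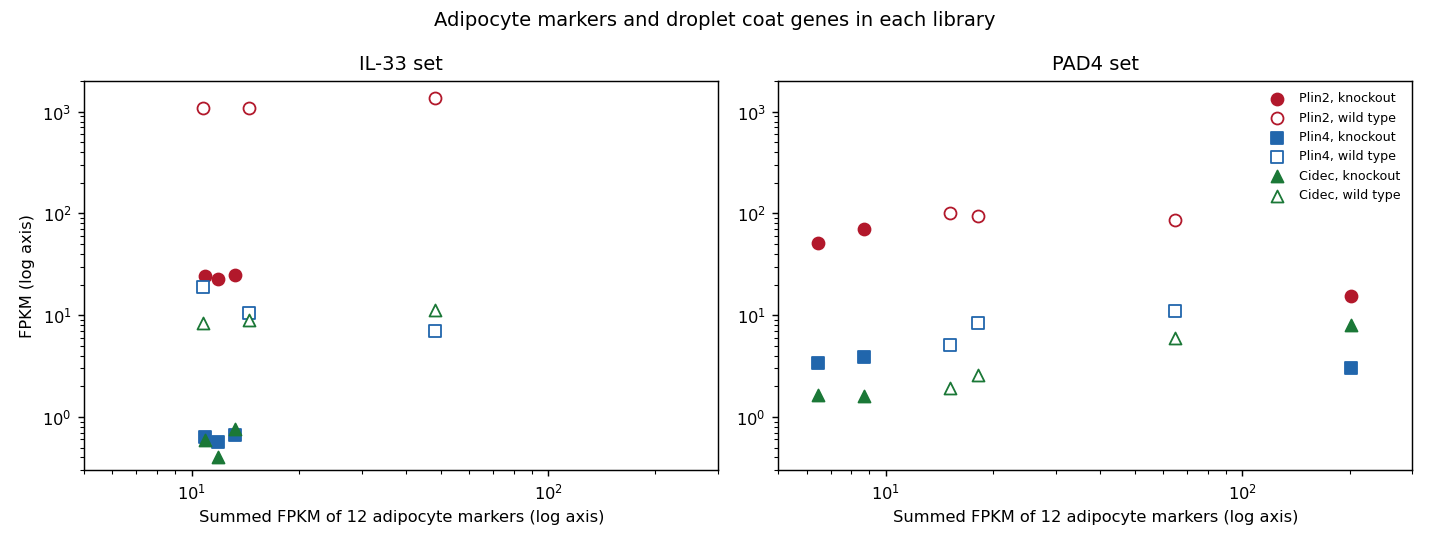
FPKM of Plin2, Plin4 and Cidec (log axis) against the summed FPKM of 12 adipocyte markers (log axis) in each library of the IL-33 set (left) and the PAD4 set (right), with filled symbols for knockout and open symbols for wild-type libraries. In the IL-33 set wild-type library 1 has the highest marker sum; in the PAD4 set knockout library 3 has the highest marker sum, the highest Cidec and the lowest Plin2.

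In the PAD4 set the 10 genes did not move together. Hilpda, Plin2 and Plin4 were lower past the threshold, 0 were higher past it, and 7 did not pass (limma; G0s2 and Plin5, both higher in mean, had an unadjusted p under 0.05), where 8.79% of the 13986 genes tested were lower and 8.89% higher past it. As before, the contrast was used to choose the genes and nothing is read from the count. The 3 knockout libraries were all below wild type for 4 genes (Plin2, Plin4, Pnpla2 and Hilpda; background 15.8%) and all above it for Plin5 alone (background 17.2%), while 5 genes overlapped. The median change of the 10 was -0.42, beside 0.016 over all genes tested. With no filter on low values, 0 of 32199 genes passed in this set (limma; 6053 had an unadjusted p under 0.05, among them Hilpda, Plin4, G0s2 and Pnpla2, and the smallest adjusted p was 0.0551), so each call in the PAD4 set depends on that filter.

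Among the coat genes, Plin2 had 51.6, 70.4 and 15.5 FPKM in PAD4 knockout libraries, against 100.2, 86.5 and 94.3 FPKM in wild-type libraries, a mean of 45.8 ± 27.9 FPKM in the knockout and 93.7 ± 6.84 FPKM in wild type (SD, n = 3 each) and a change of -1.26 ± 0.43. Knockout library 3 was far below the other 2, and wild-type libraries were close to each other. Without knockout library 3 the change was -0.63 ± 0.39 and no longer past the threshold, and it also missed the threshold without wild-type library 1 or 3, with a pseudocount of 0.1, with median-of-ratios scaling, with quantile normalization and with no mean-variance trend. Plin4 had 3.39, 3.86 and 3.06 FPKM in PAD4 knockout libraries, against 5.09, 11.0 and 8.43 FPKM in wild-type libraries, a change of -0.997 ± 0.27. Here the knockout libraries were close together and the wild-type ones spread, and the call was lost without wild-type library 2 or 3. Plin5 was higher in all 3 knockout libraries, with 3.23, 1.31 and 2.55 FPKM in PAD4 knockout libraries, against 1.13, 1.26 and 1.13 FPKM in wild-type libraries, a change of 0.59 ± 0.23 that did not pass. Its knockout library 2 was just above the highest wild-type library, and without it the change was past the threshold. Plin3 had 3.40, 5.33 and 2.96 FPKM in PAD4 knockout libraries, against 4.19, 5.10 and 5.97 FPKM in wild-type libraries, and the groups overlapped. Cidec had 1.64, 1.59 and 7.94 FPKM in PAD4 knockout libraries, against 1.92, 5.93 and 2.59 FPKM in wild-type libraries, a change of -0.084 ± 0.39. A single library in each group, knockout library 3 and wild-type library 2, was high in Cidec.

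Those 2 libraries were also the ones highest in adipocyte markers. The 12 markers summed to 6.47, 8.69 and 201 FPKM in PAD4 knockout libraries, against 15.1, 64.7 and 18.2 FPKM in wild-type libraries, and 10 of 12 had a higher mean in the knockout. Ucp1 had 0.0710, 0.0403 and 79.97 FPKM in PAD4 knockout libraries, and among wild-type libraries its highest value was 3.04 FPKM in library 2. Without both libraries, a check added after the values were seen, the change was -0.31 ± 0.36 for Cidec, -0.68 ± 0.54 for Plin2 and -0.71 ± 0.42 for Plin4, and of the 10 genes Hilpda alone was past the threshold, at -1.60 ± 0.38. The part of fat tissue in these values was not tested beyond this.

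Among the lipases and inhibitors, Hilpda had 0.545, 1.66 and 0.794 FPKM in PAD4 knockout libraries, against 4.23, 3.25 and 6.26 FPKM in wild-type libraries, a 4.58-fold lower mean and a change of -1.48 ± 0.25. The lowest wild-type library was 1.96 times the highest knockout library, and leaving out any single library kept Hilpda past the threshold. Pnpla2 had 24.7, 17.4 and 19.0 FPKM in PAD4 knockout libraries, against 27.7, 27.4 and 32.5 FPKM in wild-type libraries, a change of -0.51 ± 0.30 that did not pass although the groups did not overlap. G0s2 had 84.4, 32.1 and 61.9 FPKM in PAD4 knockout libraries, against 22.6, 28.5 and 32.7 FPKM in wild-type libraries, a 2.13-fold higher mean and a change of 0.97 ± 0.36 that did not pass. Knockout library 2 lay within the wild-type range, and without it G0s2 was past the threshold. Angptl4 had 25.4, 23.5 and 6.52 FPKM in PAD4 knockout libraries, against 23.7, 28.4 and 27.9 FPKM in wild-type libraries, a change of -0.70 ± 0.39 that rests on knockout library 3, the library with low Plin2. It was past the threshold without knockout library 1 or 2, and without library 3 it was -0.12 ± 0.37. Mgll had 9.53, 4.36 and 6.22 FPKM in PAD4 knockout libraries, against 4.07, 8.39 and 5.75 FPKM in wild-type libraries, with ranges that nearly coincide.

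The ratio of G0s2 to Pnpla2 was 3.41, 1.84 and 3.26 in PAD4 knockout libraries, against 0.815, 1.04 and 1.01 in wild-type libraries, with no overlap. Inhibitor and lipase were near parity in wild type, as they were in the wild type of the IL-33 set, and the inhibitor exceeded the lipase in all 3 knockout libraries. The other inhibitor did the opposite: Hilpda over Pnpla2 was 0.0220, 0.0951 and 0.0418 in PAD4 knockout libraries, against 0.153, 0.119 and 0.193 in wild-type libraries, also with no overlap. Plin2 over Plin3 was 15.2, 13.2 and 5.22 in PAD4 knockout libraries, against 23.9, 17.0 and 15.8 in wild-type libraries, and Plin5 over Plin2 was 0.0627, 0.0186 and 0.165 in PAD4 knockout libraries, against 0.0113, 0.0145 and 0.0120 in wild-type libraries. Both pairs of ranges were apart. Mgll over Pnpla2 was 0.385, 0.250 and 0.328 in PAD4 knockout libraries, against 0.147, 0.307 and 0.177 in wild-type libraries, with overlap. How often ratios of other gene pairs keep the groups apart was not computed, so nothing is read from these gaps in either set.

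By level, G0s2 had the highest mean of the 10 in PAD4 knockout libraries (59.4 ± 26.2 FPKM), but its range overlapped that of Plin2 and every further neighbour in the order overlapped the gene above it. In wild type of the PAD4 set, Plin2 was first with no overlap, Pnpla2, G0s2 and Angptl4 followed within overlapping ranges, and Plin5 was last with a range apart from that of Cidec. Plin2 was thus the most abundant of the 10 in both wild-type groups and in neither group labelled knockout, although in PAD4 knockout libraries its range overlapped that of G0s2.

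Set side by side, the change in libraries labelled IL-33 knockout was more negative than the change in PAD4 knockout libraries for each of the 10 genes, and neither comparison uses the wild-type libraries of the other. The difference between the knockout effects (IL-33 minus PAD4) was past the threshold for 7 of 10, all lower, where 6.23% of 13010 genes were lower and 6.18% higher past it. It was -4.30 ± 0.54 for Plin2, -2.81 ± 0.43 for G0s2, -2.66 ± 0.51 for Angptl4, -2.64 ± 0.56 for Cidec, -2.15 ± 0.29 for Plin5, -1.92 ± 0.40 for Plin4 and -1.70 ± 0.26 for Pnpla2. Both contrasts had been used to choose the genes. For Hilpda it was -1.04 ± 0.54, for Mgll -0.80 ± 0.35 and for Plin3 -0.28 ± 0.28, none past the threshold. Hilpda passed without wild-type library 2 of the IL-33 set, where its difference was -1.54, and its difference was -0.50 without wild-type library 1 of that set. Mgll passed without knockout library 2 of the PAD4 set, at -1.03. Plin5 was not tested at a mean of at least 2 FPKM. G0s2, Plin5 and Mgll had changes of opposite sign in the 2 sets. Their positive changes in the PAD4 set did not pass the threshold, and that of Mgll was 0.11 ± 0.30. Hilpda, Plin2 and Plin4 were lower past the threshold in both sets. Each set is a batch of its own, so a difference between knockouts and a difference between batches cannot be told apart.

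**Figure D4:**
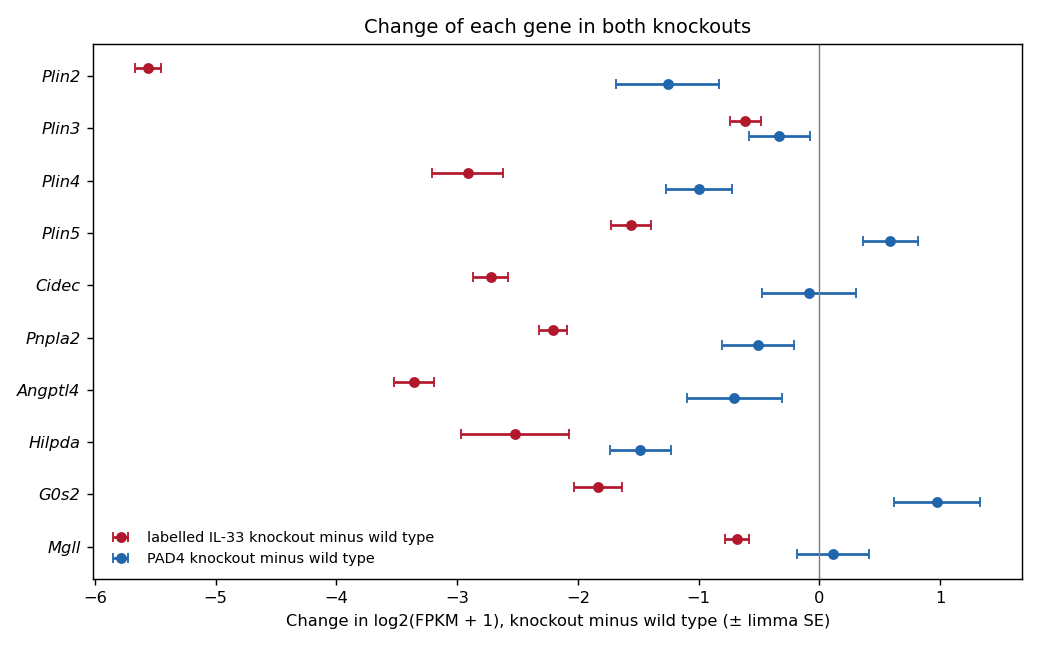
Change of each of the 10 genes on the log2(FPKM + 1) scale, with limma standard errors, in libraries labelled IL-33 knockout minus wild type (red, upper) and PAD4 knockout minus wild type (blue, lower). Plin2 has the most negative value at -5.56 in the IL-33 set, and G0s2, Plin5 and Mgll lie on opposite sides of 0 in the 2 sets.

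The genes named from here on are not members of the group and were tested across all genes. Their lists were chosen with earlier results of these data known, and most genes are named for a small p. The counts and p-values below are thus not independent of that choice. Of 24 tested PPAR factors and other PPAR targets, 15 were lower and 1, Ppargc1a, was higher in libraries labelled IL-33 knockout, with a median change of -0.78, where 22.2% of all genes were higher and 16.8% lower past the threshold. Pdk4, which shuts off glucose use by mitochondria in fasting, fell most, to 4.18 ± 1.02 FPKM in libraries labelled IL-33 knockout, against 384 ± 60.1 FPKM in wild type (SD, n = 3 each; -6.22 ± 0.16, adjusted p = 1.29e-06, limma). The peroxisomal oxidation gene Ehhadh (-1.59 ± 0.095, adjusted p = 4.13e-05) and the mitochondrial carrier Ucp2 (-2.04 ± 0.11, adjusted p = 2.5e-05) fell as well (limma). The same list in PAD4 knockout libraries had 6 higher and 1 lower of 22 tested, with a median change of 0.12, where 8.89% of all genes were higher and 8.79% lower. Acadm (4.09 ± 0.37, adjusted p = 3.97e-06) and Acadl (2.27 ± 0.36, adjusted p = 0.000429), dehydrogenases of mitochondrial fatty acid oxidation, rose, while Pdk4 fell (-1.68 ± 0.34, adjusted p = 0.00253; limma). Pdk4 thus fell in both sets, as Plin2 was lower in both. The difference between the effects (IL-33 minus PAD4) was past the threshold and lower for 14 of 22 of these genes and higher for 0, where 6.23% of all genes were lower and 6.18% higher. Without wild-type library 1 of the PAD4 set, 3 of the list were higher and 0 lower in PAD4 knockout libraries, and the call of Pdk4 was lost. The proximal tubule markers, given above, were higher in mean in both knockouts for 12 of 12, and their part in these changes was not tested.

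Among other droplet coat and biogenesis genes, 7 of 18 tested were higher and 1, Fitm2, was lower in libraries labelled IL-33 knockout, with a median change of 0.31, where 22.2% of all genes were higher and 16.8% lower. Nsdhl, a sterol synthesis enzyme found on droplets, rose to 23.7 ± 3.96 FPKM in libraries labelled IL-33 knockout, against 5.39 ± 0.747 FPKM in wild type (1.94 ± 0.15, adjusted p = 0.000106, limma). Cideb, the liver-type relative of Cidec (1.48 ± 0.18, adjusted p = 0.000656), Bscl2, which encodes the droplet-forming protein seipin (0.70 ± 0.10, adjusted p = 0.00143), and Acsl3, a droplet acyl-CoA synthetase (1.04 ± 0.16, adjusted p = 0.00223), rose too (limma). Cideb and Cidec thus had changes of opposite sign. Against their wild type, PAD4 knockout libraries had 3 of 19 higher and 2 lower, where 8.89% of all genes were higher and 8.79% lower. Fitm1 (1.17 ± 0.39, adjusted p = 0.0424), Mettl7b (2.09 ± 0.41, adjusted p = 0.00202) and Cideb (1.46 ± 0.33, adjusted p = 0.00479) rose, and Acsl3 (-1.14 ± 0.28, adjusted p = 0.00793) and Lpcat1 (-0.61 ± 0.20, adjusted p = 0.0366) fell (limma). These counts were 0 higher without wild-type library 1, 6 higher without knockout library 2, 1 lower without knockout library 3 or wild-type library 2 and 0 lower without wild-type library 3. The call of Lpcat1 was lost in 9 of the 17 other settings that tested it, and the groups of Fitm1 overlapped.

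Of the other lipolysis and lipoprotein lipase genes, 8 of 21 were higher and 3 (Abhd5, Ddhd2 and Gpihbp1) lower in libraries labelled IL-33 knockout, where 22.2% of all genes were higher and 16.8% lower, so that the share lower was near that of all genes. Lpl, the lipase that ANGPTL4 inhibits, rose to 42.0 ± 4.82 FPKM in libraries labelled IL-33 knockout, against 19.8 ± 2.25 FPKM in wild type (1.05 ± 0.12, adjusted p = 0.000544, limma), while Gpihbp1, which anchors it to capillaries, fell (-0.90 ± 0.14, adjusted p = 0.00202). Aadac, a microsomal esterase, rose (1.79 ± 0.099, adjusted p = 3.08e-05, limma). The count of higher genes was 5 without knockout library 1 or 2 and 4 without knockout library 3, and that of lower genes was 5 without wild-type library 1. In PAD4 knockout libraries, 3 of 20 were higher and 0 lower (8.89% of all genes were higher and 8.79% lower; 1, Lipg, was lower at an unadjusted p under 0.05), the higher ones being Lpl (2.65 ± 0.35, adjusted p = 0.000115), Aadac (1.95 ± 0.32, adjusted p = 0.000563) and the carboxylesterase Ces1f (1.89 ± 0.35, adjusted p = 0.00124; limma). Lpl thus rose in both sets, while Angptl4 was lower in the IL-33 set and did not pass in the PAD4 set, with a difference between the effects given above. The count of higher genes was 5 without knockout library 2 of the PAD4 set, where 1 gene was lower.

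Triglyceride synthesis genes were 3 higher (Agpat1, Apob and Mogat2) and 7 lower of 16 tested in libraries labelled IL-33 knockout, where 22.2% of all genes were higher and 16.8% lower, so that the share higher was near that of all genes. Lpin3 (-1.02 ± 0.11, adjusted p = 0.000395), Agpat2 (-0.72 ± 0.086, adjusted p = 0.000655) and Lpin2 (-0.75 ± 0.15, adjusted p = 0.00574), enzymes on the path from glycerol phosphate to diglyceride, fell, and Mogat2, a monoacylglycerol acyltransferase, rose (0.98 ± 0.15, adjusted p = 0.00179; limma). Of 14 tested in the PAD4 set, only Mogat1 passed and rose in the knockout (1.66 ± 0.38, adjusted p = 0.00518, limma), a call lost without wild-type library 1, and 1 of 14 is near the 8.89% of all genes that were higher. Genes of fatty acid uptake, binding and activation were 4 higher (Fabp3, Fabp5, Slc27a2 and Vldlr) and 5 lower (Acsl5, Cd36, Dbi, Slc27a1 and Slc27a4) of 13 tested in libraries labelled IL-33 knockout, against the same 22.2% and 16.8% of all genes. Fabp5 (1.16 ± 0.13, adjusted p = 0.000543) and the lipoprotein receptor Vldlr (0.82 ± 0.10, adjusted p = 0.000745) rose, and the fatty acid transporters Slc27a4 (-0.80 ± 0.11, adjusted p = 0.00111) and Slc27a1 (-0.88 ± 0.12, adjusted p = 0.00125) fell (limma). The number lower was 3 without knockout library 1 or 3. Of 12 tested in the PAD4 set, Slc27a2 rose in the knockout (1.63 ± 0.42, adjusted p = 0.0105) and Acsl4, which activates arachidonic acid and is needed for ferroptosis, fell (-2.57 ± 0.34, adjusted p = 0.000115; limma), so that 1 of 12 in each direction stands near the 8.89% and 8.79% of all genes. Slc27a2 was not called without wild-type library 1, and the number higher was 4 without knockout library 2 and 2 without wild-type library 2.

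Hypoxia-inducible factor targets other than the members were split. In libraries labelled IL-33 knockout, 9 of 20 were higher and 5 lower (Adm, Bnip3, Ddit4, Pfkfb3 and Slc2a1), where 22.2% of all genes were higher and 16.8% lower. Ak4 (2.61 ± 0.18, adjusted p = 7.94e-05) and P4ha1 (1.35 ± 0.18, adjusted p = 0.00109) rose, and Ddit4 (-1.66 ± 0.092, adjusted p = 3.02e-05) and Bnip3 (-0.83 ± 0.14, adjusted p = 0.00312) fell (limma). Without any one of the 3 knockout libraries 5 were higher, and the number lower was 2 without knockout library 1 and 3 without knockout library 2 or 3 or wild-type library 1 or 3. In PAD4 knockout libraries, 2 of 20 were higher, Ldha (2.41 ± 0.32, adjusted p = 0.000114) and Ak4 (1.71 ± 0.34, adjusted p = 0.00227), and 1 was lower, Egln3 (-1.09 ± 0.29, adjusted p = 0.0146; limma), shares near or under the 8.89% higher and 8.79% lower of all genes. Ak4 was not called without wild-type library 1, nor Egln3 without knockout library 3 or wild-type library 1 or 3. Hilpda, lower past the threshold in both sets, thus differed in direction from Ak4, which rose in both.

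Of the glucocorticoid and fasting response genes, 8 of 15 were lower and 1, Klf15, was higher in libraries labelled IL-33 knockout, with a median change of -0.68, where 22.2% of all genes were higher and 16.8% lower. Mt2, a metallothionein, fell to 25.5 ± 3.13 FPKM in libraries labelled IL-33 knockout, against 512 ± 155 FPKM in wild type (-4.23 ± 0.23, adjusted p = 2.86e-05, limma). Cebpd (-2.61 ± 0.17, adjusted p = 5.96e-05), Fkbp5 (-2.03 ± 0.16, adjusted p = 0.000119) and Zbtb16 (-1.38 ± 0.20, adjusted p = 0.00148), all induced by glucocorticoids, fell as well (limma). Klf15 lost its call without knockout library 1 or 2 or wild-type library 3. In PAD4 knockout libraries, 5 of 14 were lower (Cebpd, Dusp1, Fbxo32, Per1 and Tsc22d3) and 2 higher (Klf15 and Pck1), with a median change of -0.72, where 8.89% of all genes were higher and 8.79% lower. Cebpd (-1.84 ± 0.31, adjusted p = 0.000702), the muscle atrophy gene Fbxo32 (-1.52 ± 0.27, adjusted p = 0.00101) and the clock gene Per1 (-0.90 ± 0.26, adjusted p = 0.0216) fell, and Pck1, the gluconeogenic enzyme of the proximal tubule, rose (1.60 ± 0.41, adjusted p = 0.0112; limma). The number lower was 2 without knockout library 3 or wild-type library 3 and 3 without wild-type library 1 or 2. The number higher was 0 without wild-type library 1 or 3 and 1 without knockout library 1 or 3. Without the 2 libraries highest in adipocyte markers, knockout library 3 and wild-type library 2, the PAD4 counts moved by more than 1.5 times to 0 lower for droplet coat and biogenesis genes, for PPAR targets and for hypoxia-inducible factor targets, to 0 higher for fatty acid uptake genes, and to 1 higher and 2 lower for glucocorticoid and fasting genes.

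**Figure D5:**
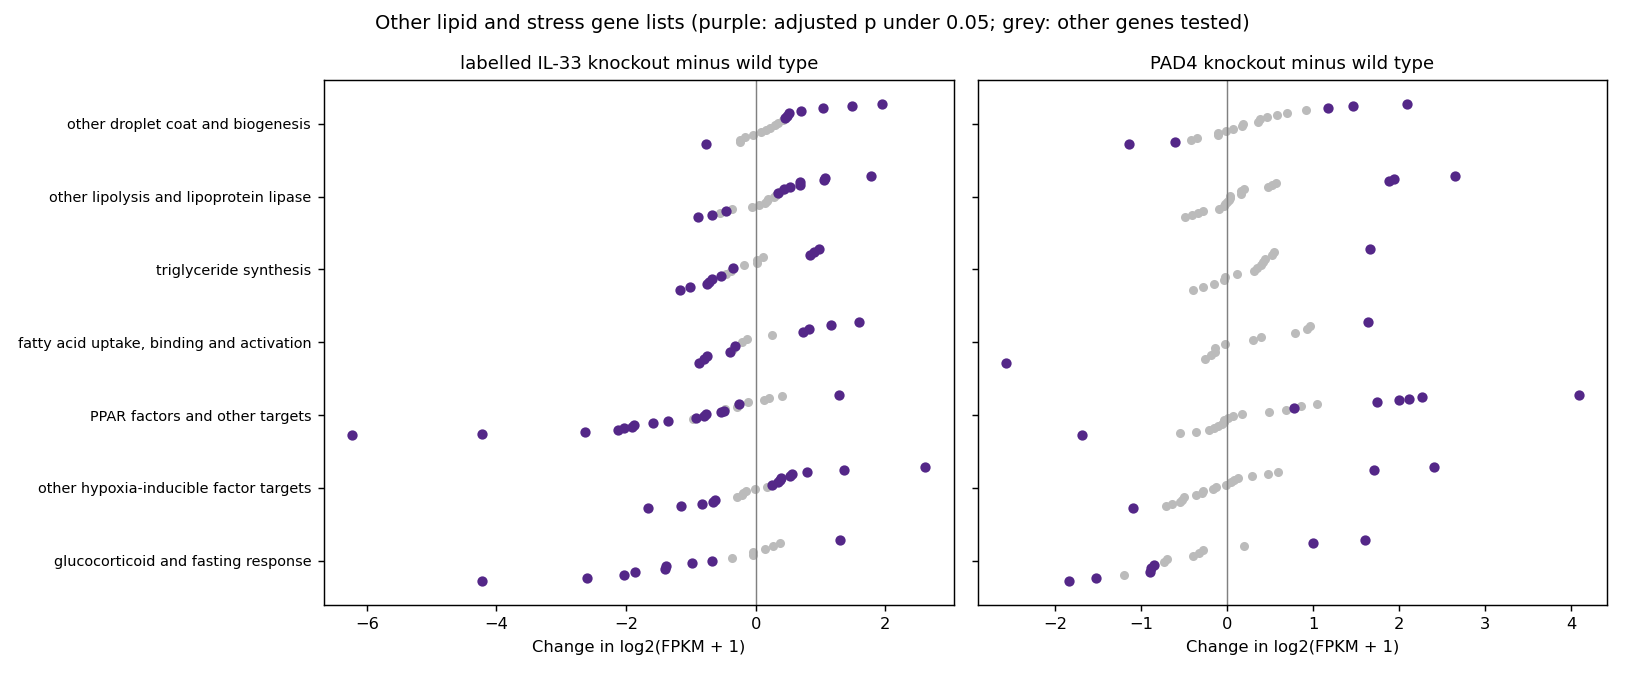
Change of each tested gene of 7 related lists on the log2(FPKM + 1) scale, in libraries labelled IL-33 knockout minus wild type (left) and PAD4 knockout minus wild type (right), with purple points past the threshold (limma adjusted p under 0.05) and grey points not. PPAR factors and other targets lie mostly to the left in the IL-33 set, with 15 lower and 1 higher, and have 6 higher and 1 lower in the PAD4 set.

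The genes whose pattern was most like those of the 3 most abundant members were found among 4193 genes of at least 5 FPKM in both tables. They were ranked by the smaller of the Pearson r in the 2 sets, over 6 libraries each. Group means were not removed, so a gene with a like difference between the groups reaches a high r. Nothing further is read from these values. For Plin2 these were Pold4 (r of 0.973 in the PAD4 set and 0.995 in the IL-33 set), Tuba1c (0.963 and 0.980) and Tgm1 (0.950 and 0.986). For G0s2 they were Cystm1 (0.984 and 0.950), Nop10 (0.952 and 0.960) and Cd36 (0.942 and 0.947), of which Cd36 encodes a fatty acid transporter. For Pnpla2 they were Selenbp1 (0.962 and 0.995), Tuba4a (0.960 and 0.981) and Txnip (0.945 and 0.996). Of the members, Plin3, Plin5, Cidec and Hilpda had a mean below 5 FPKM in the PAD4 set and so could not appear. None of the other members was among the genes found.

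Plin4 overlaps Hdgfl2 and G0s2 overlaps Lamb3 on the opposite strand, and Mgll overlaps 5 predicted genes, 3 of them on its own strand. Libraries were strand-specific per the labels' protocols, but whether strand was used in counting is not given in the sources used here; reads of neighbours in the values of these 3 genes were not tested for.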

How the data were processed

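Bulk RNA-seq of 12 kidneys was analysed. The authors deposited 1 FPKM table per set, whose columns are libraries, per the file headers. Libraries kept the strand and were made from poly(A) RNA, as the labels' protocols state. HISAT2 and StringTie are among the tools that the submitters' processing notes list, without versions or order. The genome build was not given in the labels or headers. Symbols came from a GENCODE mouse annotation, matched on Ensembl number (30212 of 32199 and 29690 of 31719 genes).

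Within each table, log2(FPKM + 1) was fitted with limma 3.58.1 (R 4.3.3; eBayes with trend) for genes with a mean of at least 0.5 FPKM. Benjamini-Hochberg adjustment ran over all genes tested, with a two-sided threshold of 0.05. Changes are knockout minus wild type and understate low genes. SEs of changes are limma's moderated ones. The difference between effects was a contrast of 4 group means over 12 libraries. The fit was tested on simulated data. In the IL-33 set's table, the columns taken as wild type name the injury model and a number without a genotype, the other columns being labelled knockout. The members and lists were chosen with earlier results of these data known. Named were the members, Padi4, Il33, up to 4 genes of smallest p per list and comparison, and 3 genes most correlated with each of the 3 most abundant members. Some genes that this rule names are not reported here. Names of other genes in counts of 5 or fewer were added after their values were seen. Alternatives were no filter, a mean of at least 2 FPKM, pseudocounts of 0.1 and 0.5, TPM scaling, scaling without mitochondrial genes, median-of-ratios scaling, quantile normalization, no trend, array weights, a replicate block and leaving out each library.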

Additional observations from a re-analysis of the deposited data

How the results depend on the processing

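In the IL-33 set all 10 genes were lower and past the threshold under every one of the 17 alternatives run. The number of genes called there moved, with single libraries left out, between 2072 and 3903 higher (3226 in the full set) and between 1554 and 2662 lower (2445). In the PAD4 set, calls depended on the setting. With no filter 0 genes were higher and 0 lower, so 0 of the 10 members passed. Genes higher (1243) came to 1916 with quantile normalization, 2267 with array weights, 692 without the 2 libraries highest in adipocyte markers (chosen after seeing the data) and 352 to 1770 with single libraries left out. Genes lower (1230) came to 762 at a mean of at least 2 FPKM, 2939 with array weights, 531 without those 2 libraries and 515 to 1764 with single libraries left out. Without wild-type library 1, 33.1% of called genes were higher, against 50.3% in the full set and 61.1% without wild-type library 3. Members higher were 2 (G0s2 and Plin5) with array weights and 0 to 2 with single libraries left out. Members lower (3) were 1 without the 2 libraries highest in adipocyte markers and 1 to 4 with single libraries left out. With array weights they were Angptl4, Hilpda, Plin2 and Plin4, and with quantile normalization Hilpda, Plin4 and Pnpla2.

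The change of Padi4 missed the limma threshold with no filter (-0.71, adjusted p = 0.162), with no trend (-0.71, adjusted p = 0.0579) and without the 2 libraries highest in adipocyte markers (-0.66, adjusted p = 0.119), and ranged from -0.86 to -0.53 with single libraries left out, missing it without knockout library 3 (adjusted p = 0.0548) or wild-type library 3 (adjusted p = 0.0797). Il33 passed it with quantile normalization (-0.74, adjusted p = 0.0395), with the replicate block (-0.65, adjusted p = 0.0408) and without wild-type library 2 (adjusted p = 0.0348), and ranged from -0.89 to -0.33 with single libraries left out. For the difference between the effects, genes higher (804) came to 1369 with no filter, 375 at a mean of at least 2 FPKM, 1229 with median-of-ratios scaling, 1580 with quantile normalization, 2037 with array weights and 533 to 1143 with single libraries left out. Genes lower (811) came to 1877 with median-of-ratios scaling, 1489 with quantile normalization, 1488 with array weights and 522 to 1032 with single libraries left out. The causes were not tested.

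Libraries with the same number in a set did not clearly deviate together (r of -0.00787, -0.115 and -0.146 in the PAD4 set and of -0.0166, 0.134 and -0.00208 in the IL-33 set). No pairing by number was seen, but deviations from means of 3 libraries cannot show that it is absent. With the replicate number as a block, 2 members stayed lower past the threshold in the PAD4 set (Hilpda and Plin4) and 10 in the IL-33 set, and Hilpda joined the 7 members past it for the difference between the effects. Scaling without mitochondrial genes moved the median change of all genes in the IL-33 set to 0.104, against 0.0442. With 3 libraries a group and unknown depth, low values such as those of Cidec and Plin4 in libraries labelled IL-33 knockout have an unknown counting error.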
